A study of Mus musculus with 6 samples.

Results

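The splicing factor and hnRNP genes described here were taken from the deposited gene table by their symbols. They comprise the SR protein genes (Srsf followed by a number), all Hnrnp genes, the Sm and snRNP protein genes Snrpa to Snrpg, the SF3A and SF3B subunit genes and the numbered Prpf genes. The rule gave 64 of 17528 listed genes: 10 SR protein genes, 20 hnRNP genes, 12 Sm and snRNP genes, 9 SF3 genes and 13 Prpf genes. The rule uses symbols and no measured value, though it was chosen with earlier results of these data known. A further symbol with a -ps suffix was left out, and all 64 were among the 14304 genes with enough reads to be tested. Snrpert is annotated as a processed pseudogene, and the other 63 are protein-coding.

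RNA was sequenced from femur bone marrow cells sorted as CD11b+F4/80+ macrophages from BALB/c mice of genotype RAG2-/-γc-/-, which lack mature T, B and NK cells and accept human grafts. The groups were mice without a graft (day 0), mice at day 4 and mice at day 18 after Raji cells, a line from a human Burkitt lymphoma, were engrafted intravenously. Each group had 2 libraries (A and B), and every mouse carried the same genotype. No ungrafted mice match the later days, so graft, injection and time cannot be told apart.

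Libraries held between 20073015 and 23214528 reads assigned to genes. The 2 libraries of each day were not copies of each other: their reads gave a chi-square per gene between 2.22 and 2.77, where sampling alone gives about 1. Levels are given in RPM, reads per 1000000 assigned reads after scaling between libraries, and changes as log2 fold changes ± standard error of log2(RPM + 0.1) from limma, with Benjamini-Hochberg adjustment of p-values across the 14304 genes. A gene was called at an adjusted p under 0.05. The labels do not say that the libraries of a day came from separate animals, so p-values measure only the spread between these libraries. Markers of the labelled cell type were present in every library, but those of neutrophils were far more abundant: the 8 macrophage markers summed to 468 to 879 RPM and the 8 late neutrophil granule markers to 99640 to 135900 RPM. Of 4 B cell markers, Cd79a alone was listed, at no more than 0.462 RPM.

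Pre-mRNA splicing is carried out by the spliceosome, in which small nuclear ribonucleoprotein particles (snRNPs) recognise the ends of an intron and position them for cleavage and joining. Sm proteins form a ring on most major snRNAs, and the SF3A and SF3B complexes belong to the U2 snRNP that recognises the branch point. Prpf proteins build and remodel the U4/U6.U5 tri-snRNP and the catalytic core. SR proteins bind exonic enhancers and mostly promote exon inclusion, while hnRNP proteins package nascent RNA and often silence splice sites. Many SR and hnRNP genes limit their own protein by splicing their transcripts into forms that nonsense-mediated decay removes. In macrophages several hnRNP proteins also bind AU-rich elements of mRNAs for inflammatory mediators.

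The promoters of 4 genes are printed because the results turn on them: Hnrnpa1 and Srsf5 had the largest called rises at both later days, Srsf2 was higher at day 4 and lower at day 18, and Prpf8 was lower at both. Each line gives the 250 bases before the RefSeq start on GRCm38.p6 (mm10), 5′ to 3′ on the gene's strand. Capitals mark the CCAAT box, the TATA box (the letters TATAAA) and the ETS core (the letters CCGGAAG), on either strand. A reverse match of the ETS core reads CTTCCGG here, and that of the CCAAT box reads ATTGG. The windows are chr15:103240147-103240396 on the plus strand for Hnrnpa1, chr12:80945249-80945498 on the plus strand for Srsf5, chr11:116853095-116853344 on the minus strand for Srsf2 and chr11:75486527-75486776 on the plus strand for Prpf8.
Hnrnpa1: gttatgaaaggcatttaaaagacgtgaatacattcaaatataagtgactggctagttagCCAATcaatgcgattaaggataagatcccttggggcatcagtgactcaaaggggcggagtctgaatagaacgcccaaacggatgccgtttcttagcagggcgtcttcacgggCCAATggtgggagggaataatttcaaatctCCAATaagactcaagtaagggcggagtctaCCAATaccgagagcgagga
Srsf5: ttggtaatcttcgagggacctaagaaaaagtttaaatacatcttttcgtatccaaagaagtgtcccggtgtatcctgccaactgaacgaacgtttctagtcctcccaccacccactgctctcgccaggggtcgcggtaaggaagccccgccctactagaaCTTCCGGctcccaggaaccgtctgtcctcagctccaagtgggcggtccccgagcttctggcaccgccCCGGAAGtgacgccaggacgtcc
Srsf2: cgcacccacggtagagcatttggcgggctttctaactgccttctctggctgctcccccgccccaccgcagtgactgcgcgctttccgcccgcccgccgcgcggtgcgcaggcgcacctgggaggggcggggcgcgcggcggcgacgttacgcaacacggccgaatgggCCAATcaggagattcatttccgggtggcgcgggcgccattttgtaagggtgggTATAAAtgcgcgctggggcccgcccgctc
Prpf8: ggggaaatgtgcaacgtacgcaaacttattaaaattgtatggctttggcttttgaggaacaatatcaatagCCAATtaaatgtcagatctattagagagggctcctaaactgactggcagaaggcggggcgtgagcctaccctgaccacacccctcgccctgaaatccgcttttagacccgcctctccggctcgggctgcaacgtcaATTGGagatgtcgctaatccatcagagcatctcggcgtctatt
The Hnrnpa1 window held 4 CCAAT boxes, whose first bases lay 191, 79, 49 and 19 bases before the start. In the Srsf5 window the ETS core stood 23 bases before the start, with a reverse match at 90. The Srsf2 window had a CCAAT box at 82 and a TATA box at 29 bases before the start, and the Prpf8 window had CCAAT at 179 with a reverse match at 43.

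RefSeq promoter entries matched 55 of the 64 genes, with 72 windows of 250 bases, and 7 motifs were searched on both strands. The ETS core CCGGAAG occurred in 30.6% of these windows, against 12.6% of the 14230 windows of all listed genes and 6.91% of all 32851 windows in the table. CCAAT occurred in 47.2%, against 35.3% and 33.8%. The other motifs were scarce in every set: TATAAA was in 6.94% of the windows (7.12% of listed genes and 12.4% of all), CACGTG in 11.1% (8.06% and 6.02%), TGACGTCA in 2.78% (2.46% and 1.55%) and an NRF1 site in 1.39% (1.52% and 0.782%). A YY1 core was in 0 of the 72 (0.625% and 0.301%). Median GC content was 60.4%, against 58.8% for listed genes. None of the 7 strings contains another, several windows can belong to 1 gene, and a match describes letters only.

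The splicing genes were strongly expressed as a set. Together they took 1.09% to 1.15% of all reads in each library, of which the hnRNP genes held 0.615% to 0.656%. Per kilobase of annotated exon, 57 of the 63 protein-coding members stood above the median tested protein-coding gene, with a median of 20 RPM per exon kb, against 5.72 RPM per exon kb for all 11660 such genes. On that scale, averaged over the 6 libraries, the highest were Hnrnpf, which binds G-rich runs, at 196, Hnrnpab at 150, Hnrnpa2b1 at 144, Srsf2, the nuclear speckle protein SC35, at 121 and Hnrnpa0 at 116 RPM per exon kb. Prpf40b was lowest at 0.348 RPM per exon kb, from 15 to 74 reads a library, and Snrpg, an Sm ring protein, came next at 3.72. GENCODE M21 lists a nonsense-mediated decay transcript for 31 of the 63 genes (49.2%), against 29.8% of the tested protein-coding genes, and for 9 of the 10 SR protein genes.

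The deposited values resolve into whole reads for 28 of the 64 genes and into fractions for 35, among them Hnrnpa1, Srsf5, Srsf2, Prpf8, Sf3b1, Snrpa and Snrpd2. Reads of these genes may be divided with other copies, so their levels are less certain. Hnrnpa2b1 had too many reads to be judged. The spans of 21 genes overlap another listed gene, on the other strand in 18, and the sources used here do not say whether counting used strand. Among the genes named below, Srsf2 overlaps Mettl23 and Mfsd11 (at most 26.9 RPM), Hnrnpu overlaps Cox20 (11.9 RPM), Hnrnpd overlaps Gm17092 (2.46 RPM), Snrpa overlaps BC024978 (4.52 RPM), Srsf11 overlaps Gm43362 (0.946 RPM) and Srsf4 overlaps A930004J17Rik and Gm12992 (at most 14.2 RPM).

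**Figure D1:**
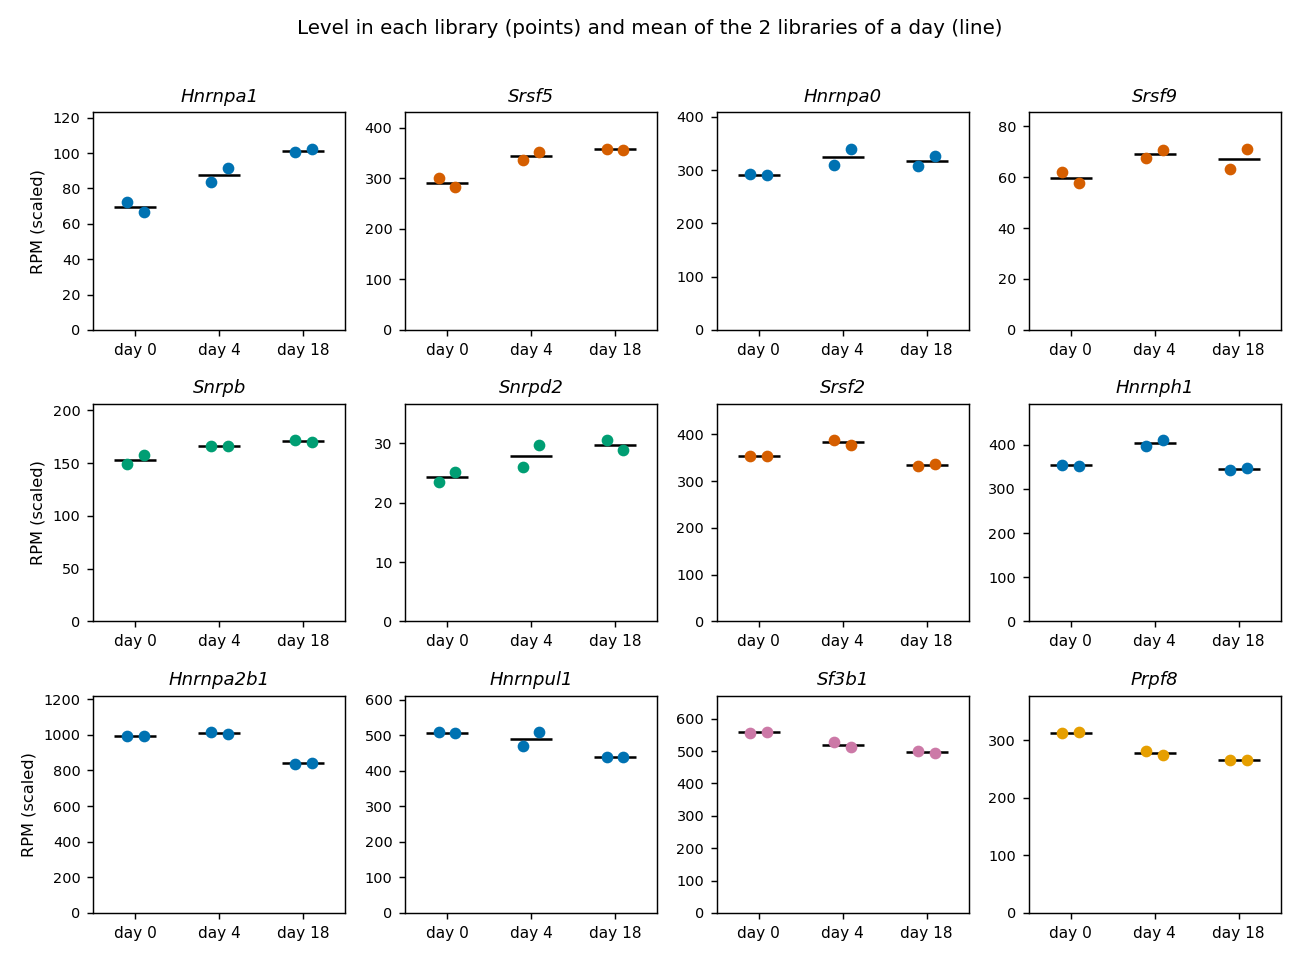
Level of 12 splicing genes in each library, in RPM after scaling (y axis from 0), at day 0, day 4 and day 18 (x axis); points are libraries A and B, lines are means of the 2 libraries and colours mark families. Hnrnpa1 and Srsf5 stand higher at both later days, Hnrnph1 and Srsf2 are highest at day 4, and Hnrnpa2b1 stands lower at day 18 only.

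Day 4 against day 0 addresses the early time after engraftment. Of the 64 genes, 7 rose and 4 fell, or 17.2%, where 12.1% of all tested genes were called (5.44% higher and 6.61% lower). The 7 that rose were Hnrnpa1, Srsf5, Srsf9, Hnrnph1, Hnrnpa0, Srsf11 and Srsf2, all of them SR protein or hnRNP genes. Among the 4 that fell were Snrpa1, Prpf8 and Sf3b1, which encode parts of the snRNPs. In bulk RNA such as this, fewer cells of a type and less RNA per cell cannot be told apart. Changes were small: 10 of the 11 were under 1.25-fold, the exception being Hnrnpa1 at 1.26-fold, and the median log2 fold change over the 64 genes was 0.00462, against 0.0044 over all tested genes. The genes are measured more precisely than most, with a median standard error of 0.0503 on the log2 scale, against 0.115, at a median log2 level of 6.72, against 4.13. With 1 spread for all levels limma called 0 of 14304 genes at day 4 (2458 at an unadjusted p under 0.05, 6 of them splicing genes), and on the RPKM scale it called 91 genes and none of the 64. Without the day 0 A library 4 rose and 2 fell, and without day 0 B 3 rose and 2 fell.

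By day 18 more splicing genes differed from day 0, and most of those were lower. Of the 64, 7 rose and 20 fell, or 42.2%, beside 35.2% of all tested genes (18% higher and 17.1% lower). Those that rose were Hnrnpa1, Srsf5, Snrpd2, Snrpa, Srsf9, Snrpb and Hnrnpa0. Among the largest falls were those of Hnrnpa2b1, Prpf8, Prpf4, Hnrnpul1 and Hnrnpu. Changes stayed under 1.25-fold for 25 of the 27, Hnrnpa1 reached 1.46-fold, and the median log2 fold change of the 64 genes was -0.0865, against 0.0161 for all tested genes. Without the day 0 A library 4 genes rose, and without day 18 B 12 fell. The split between rises and falls also moved with the scaling between libraries, as given after the families.

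**Figure D2:**
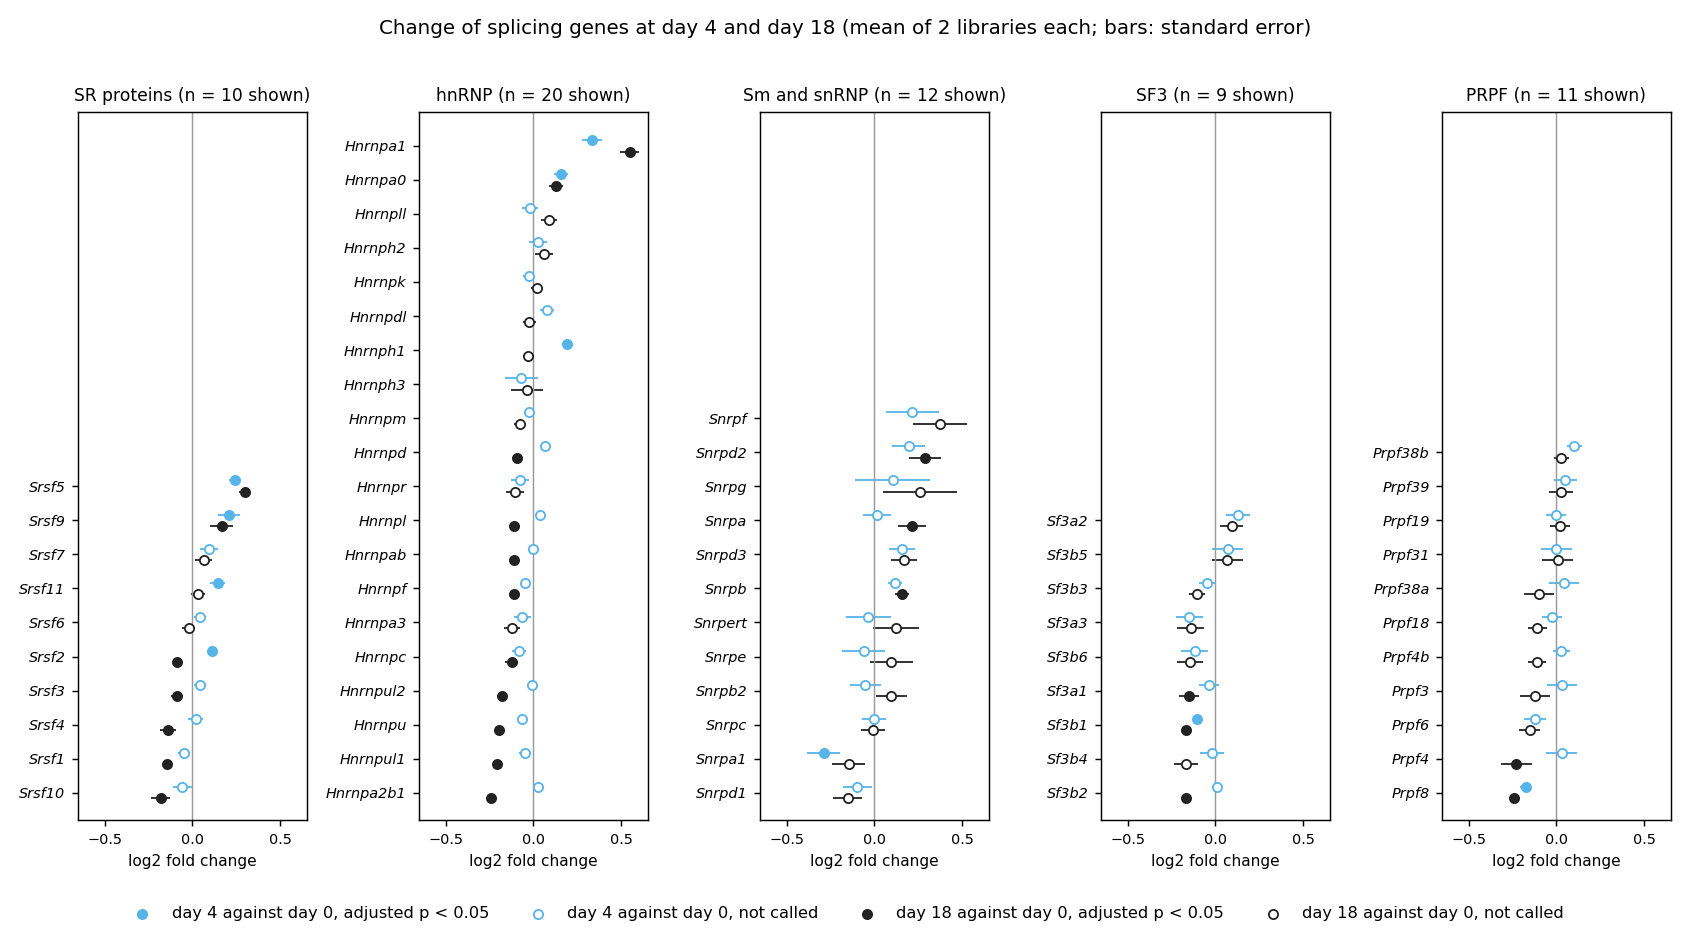
Log2 fold change (x axis) of 62 of the 64 splicing genes at day 4 (blue) and day 18 (black) against day 0, by family; filled points were called at an adjusted p under 0.05 by limma and bars are standard errors. Both sets of changes use the same day 0 libraries, of the 2 genes not drawn Prpf40b has a wide error (0.57), and Hnrnpa1 is farthest to the right at both days.

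The 10 SR protein genes went different ways. At day 4, 4 were called higher and 0 lower, or 40% and 0%, beside 5.44% and 6.61% of all tested genes. At day 18, 2 were called higher and 5 lower, or 20% and 50%, beside 18% and 17.1%. Srsf5, which promotes exon inclusion, had 299 and 282 RPM at day 0, 336 and 351 RPM at day 4 and 358 and 356 RPM at day 18. Both later days lay above day 0 with no overlap, by 0.24 ± 0.032 at day 4 (adjusted p = 6.53e-06) and 0.30 ± 0.032 at day 18 (adjusted p = 3.24e-08). Its share of the reads of the SR family was 15.6% and 15% in the day 0 libraries, 16.7% and 17.4% in those of day 4 and 18.95% and 18.8% in those of day 18, a measure that scaling between libraries does not touch. Srsf9, a small SR protein, had 61.9 and 57.5 RPM at day 0, 67.5 and 70.5 RPM at day 4 and 63.0 and 71.2 RPM at day 18. Its changes of 0.21 ± 0.064 at day 4 (adjusted p = 0.031) and 0.17 ± 0.064 at day 18 (adjusted p = 0.0443) were both called without overlap, though the call at day 18 was lost with median-of-ratios scaling.

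Srsf2 and Srsf11 were higher at day 4 and not at day 18. Srsf2 had 354 and 353 RPM at day 0, 387 and 378 RPM at day 4 and 331 and 336 RPM at day 18. It rose by 0.11 ± 0.029 at day 4 (adjusted p = 0.00909) and at day 18 was lower than at day 0 (-0.085 ± 0.029, adjusted p = 0.0212), with no overlap between any of the 3 days. Srsf11, an SR-related protein, had 139 and 139 RPM at day 0, 159 and 148 RPM at day 4 and 142 and 143 RPM at day 18. It changed by 0.14 ± 0.042 at day 4 (adjusted p = 0.0229) and by 0.032 ± 0.042 at day 18, which was not called (adjusted p = 0.609).

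Besides Srsf2, 4 SR protein genes fell at day 18. Srsf1, the founding member of the family, changed by -0.14 ± 0.031 (adjusted p = 0.000639), Srsf3 by -0.088 ± 0.033 (adjusted p = 0.0406), Srsf4 by -0.14 ± 0.044 (adjusted p = 0.0164) and Srsf10 by -0.18 ± 0.055 (adjusted p = 0.0108). Srsf10, which turns into a repressor when dephosphorylated, had 79.0 and 82.7 RPM at day 0, 76.2 and 79.1 RPM at day 4 and 73.0 and 69.7 RPM at day 18. Srsf4 had 119 and 125 RPM at day 0, 125 and 123 RPM at day 4 and 112 and 109.7 RPM at day 18. The day 18 libraries were thus the lowest for both genes. All 5 of these calls, Srsf2 included, were lost with library totals as scaling. Srsf6 and Srsf7 were called in no comparison.

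Among the 20 hnRNP genes the close relatives Hnrnpa1 and Hnrnpa2b1 moved apart. Hnrnpa1 encodes a core hnRNP protein that silences splice sites, and lies at chr15:103240432-103246692 (plus strand, mm10). It had 72.4 and 66.4 RPM at day 0, 83.5 and 91.6 RPM at day 4 and 100.4 and 102 RPM at day 18. No 2 days overlapped, and the gene rose by 0.33 ± 0.056 at day 4 (adjusted p = 0.000148) and 0.55 ± 0.056 at day 18 (adjusted p = 1.24e-08). Hnrnpa2b1, whose protein also guides RNA transport, had 995 and 992 RPM at day 0, 1017 and 1005 RPM at day 4 and 837 and 843 RPM at day 18. Its day 4 change of 0.025 ± 0.020 was not called (adjusted p = 0.491), while at day 18 it fell by 0.24 on the log2 scale (standard error 0.020, adjusted p = 2.07e-10). The reads of Hnrnpa1 over those of Hnrnpa2b1 in the same library gave ratios of 0.0728 and 0.0670 on day 0, of 0.0821 and 0.0912 on day 4 and of 0.1199 and 0.1215 on day 18, so the pair kept unequal paces whatever the scaling.

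The other called rises of the family were those of Hnrnpa0 and Hnrnph1. Hnrnpa0 binds AU-rich elements of inflammatory mRNAs in macrophages. It had 292 and 289.8 RPM at day 0, 309 and 340.04 RPM at day 4 and 308 and 327 RPM at day 18, changes of 0.16 ± 0.040 at day 4 (adjusted p = 0.0158) and 0.13 ± 0.040 at day 18 (adjusted p = 0.0195) without overlap. Hnrnph1, which binds runs of G, had 355 and 351 RPM at day 0, 397 and 410.4 RPM at day 4 and 344 and 348 RPM at day 18. The gene rose at day 4 (0.19 ± 0.029, adjusted p = 2.74e-05) and at day 18 differed from day 0 by -0.030 ± 0.029 (adjusted p = 0.466).

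At day 18, 9 hnRNP genes were lower than at day 0, or 45% of the 20, beside 17.1% of all tested genes. The scaffold attachment protein gene Hnrnpu had 644 and 631 RPM at day 0, 615 and 606 RPM at day 4 and 551 and 562 RPM at day 18, a change of -0.20 ± 0.024 at day 18 (adjusted p = 2.42e-07). Its relative Hnrnpul1 had 509 and 505 RPM at day 0, 470.2 and 509.8 RPM at day 4 and 439 and 439.6 RPM at day 18 (-0.21 ± 0.030, adjusted p = 6.09e-06). For the other relative, Hnrnpul2, levels were 467 and 449.6 RPM at day 0, 446 and 464 RPM at day 4 and 403 and 405 RPM at day 18 (-0.18 ± 0.028, adjusted p = 1.01e-05). All 3 had their lowest libraries at day 18, and none was called at day 4. Hnrnpd, the AU-rich element binding protein AUF1, had 299 and 297 RPM at day 0, 305 and 321 RPM at day 4 and 284 and 276 RPM at day 18 (-0.091 ± 0.032, adjusted p = 0.0289). The other 4 were Hnrnpf (-0.11 ± 0.024, adjusted p = 0.000514), Hnrnpl (-0.11 ± 0.029, adjusted p = 0.00462), Hnrnpab (-0.11 ± 0.030, adjusted p = 0.00488) and Hnrnpc (-0.12 ± 0.039, adjusted p = 0.0137). The calls of Hnrnpd and these 4 were lost with library totals as scaling (adjusted p = 0.427 to 0.904), and also when scaling left out the 20 most abundant genes. The hnRNP family had 5 rises and 4 falls with library totals and 3 rises and 4 falls without the 20 most abundant genes, in place of 2 and 9. Of all tested genes, 24% were higher and 9.95% lower with library totals. Without the 20 most abundant genes those shares were 22% and 11.6%. Hnrnpa3, Hnrnph2, Hnrnph3, Hnrnpk, Hnrnpll, Hnrnpm and Hnrnpr were called in no comparison.

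Of the 12 Sm and snRNP genes, 3 were called at day 18, all of them higher, or 25%, beside 18% of all tested genes. Snrpb, which encodes the ring proteins SmB and SmB′, had 149 and 158 RPM at day 0, 166 and 166 RPM at day 4 and 172 and 169.9 RPM at day 18. It rose by 0.16 ± 0.039 at day 18 (adjusted p = 0.00248), and its day 4 change of 0.12 ± 0.039 just missed the threshold (adjusted p = 0.0518). Snrpd2, another ring protein, had 23.4 and 25.2 RPM at day 0, 26.1 and 29.7 RPM at day 4 and 30.5 and 28.9 RPM at day 18 (0.29 ± 0.092 at day 18, adjusted p = 0.0146). The U1 protein gene Snrpa had 30.8 and 34.9 RPM at day 0, 34.0 and 32.3 RPM at day 4 and 38.2 and 37.9 RPM at day 18 (0.22 ± 0.081 at day 18, adjusted p = 0.0411), a call lost with median-of-ratios scaling and without day 0 A or either library of day 18 (adjusted p = 0.375 without day 0 A). Day 18 lay above day 0 without overlap for all 3 genes. Snrpa1, the A′ protein of the U2 snRNP, was the only called fall of the family, with 26.8 and 25.04 RPM at day 0, 21.04 and 21.4 RPM at day 4 and 24.4 and 22.4 RPM at day 18. Its change of -0.29 ± 0.095 at day 4 (adjusted p = 0.046) was lost when any 1 of the 6 libraries was left out (-0.24, adjusted p = 0.283 without day 0 A).

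The other 8 genes of the family were called in no comparison. Snrpg and Snrpf, the 2 least abundant of the 12, had the widest errors of the family: Snrpf changed by 0.37 ± 0.15 at day 18 (adjusted p = 0.0613) and Snrpg by 0.26 ± 0.21 (adjusted p = 0.373), on 98.8 to 386.8 reads a library for the pair. The family median at day 18 was 0.14, and stood between 0.128 and 0.224 under the 4 scalings tried.

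Of the 9 SF3 genes, Sf3b1, Sf3b2 and Sf3a1 were lower at day 18, or 33.3%, beside 17.1% of all tested genes. Sf3b1, which clamps the branch point and is often mutated in human myelodysplastic syndromes, had 556 and 559.6 RPM at day 0, 528 and 511 RPM at day 4 and 499 and 495 RPM at day 18. It fell at both later days without overlap, with changes of -0.10 ± 0.025 at day 4 (adjusted p = 0.00625) and -0.17 ± 0.025 at day 18 (adjusted p = 5.97e-06), though the day 4 call was lost with library totals as scaling. Its partner Sf3b2 had 404 and 391 RPM at day 0, 401 and 400.1 RPM at day 4 and 352 and 355 RPM at day 18. Day 4 lay within the day 0 range and day 18 below it (-0.17 ± 0.028, adjusted p = 2.11e-05). Sf3a1 changed by -0.15 ± 0.055 at day 18 (adjusted p = 0.0336), a call lost with library totals. The other 6 SF3 genes were called in no comparison, and the family median at day 18 was below 0 under all 4 scalings.

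Of the 13 Prpf genes, 3 were lower at day 18, or 23.1%, beside 17.1% of all tested genes. Among them were Prpf8 and Prpf4. Prpf8, the scaffold of the catalytic core, had 312 and 314 RPM at day 0, 281 and 274 RPM at day 4 and 265 and 266 RPM at day 18 (-0.17 ± 0.031 at day 4, adjusted p = 0.000249, and -0.24 ± 0.031 at day 18, adjusted p = 5.84e-07). The reads of Snrpb over those of Prpf8 in the same library stood at 0.478 and 0.501 on day 0, at 0.591 and 0.607 on day 4 and at 0.648 and 0.639 on day 18, with no overlap between days. The tri-snRNP gene Prpf4 had 30.4 and 27.9 RPM at day 0, 30.3 and 29.2 RPM at day 4 and 23.8 and 25.9 RPM at day 18. Its fall at day 18 (-0.23 ± 0.089, adjusted p = 0.047) was lost without any 1 of the 4 libraries compared (-0.17, adjusted p = 0.299 without day 18 A) and with library totals. Prpf4b, a kinase, was called in the comparison of day 18 with day 4 alone, and the other 9 Prpf genes, among them the ubiquitin ligase gene Prpf19, in none.

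In the direct comparison of day 18 with day 4, splicing genes were mostly lower. Hnrnpa1 rose (0.21 ± 0.056, adjusted p = 0.00521) and 19 genes fell, 31.2% of the 64, beside 25.9% of all tested genes (14% higher and 11.9% lower). All 20 changes were under 1.25-fold. The falls were led by Hnrnpa2b1 (-0.27 ± 0.020, adjusted p = 4.9e-11), Prpf4 (-0.26 ± 0.089, adjusted p = 0.0313), Hnrnph1 (-0.22 ± 0.029, adjusted p = 8.03e-07) and Srsf2 (-0.20 ± 0.029, adjusted p = 4.92e-06). They included 10 hnRNP, 5 SR, 3 Prpf genes and 1 SF3 gene, while limma called 0 of the 12 Sm and snRNP genes (1 at an unadjusted p under 0.05). The 3 comparisons share libraries pairwise, so their values are given side by side only. Without the day 18 A library 11 genes fell, and the rise of Hnrnpa1 was not called without day 4 A (adjusted p = 0.106) or day 18 B (adjusted p = 0.0705). The fall of Prpf4 was not called without day 18 A (adjusted p = 0.258), without either day 4 library or with library totals.

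Over the 3 comparisons 32 of the 64 genes were never called. A missed threshold does not show that a gene stayed the same: at day 18 the 95% interval of the log2 fold change against day 0 lay within ±0.25 for 22 of the 37 genes not called, and at day 4 for 40 of the 53. The libraries of the compared days did not overlap for any of the genes called against day 0, 11 at day 4 and 27 at day 18. The same held for 20 of the genes not called at day 4 and 21 of those not called at day 18. The share without overlap was not worked out over all tested genes, so these counts do not set the splicing genes apart. Prpf40b, the least abundant, had 1.6 and 1.0 RPM at day 0, 3.4 and 0.7 RPM at day 4 and 1.9 and 1.7 RPM at day 18.

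**Figure D3:**
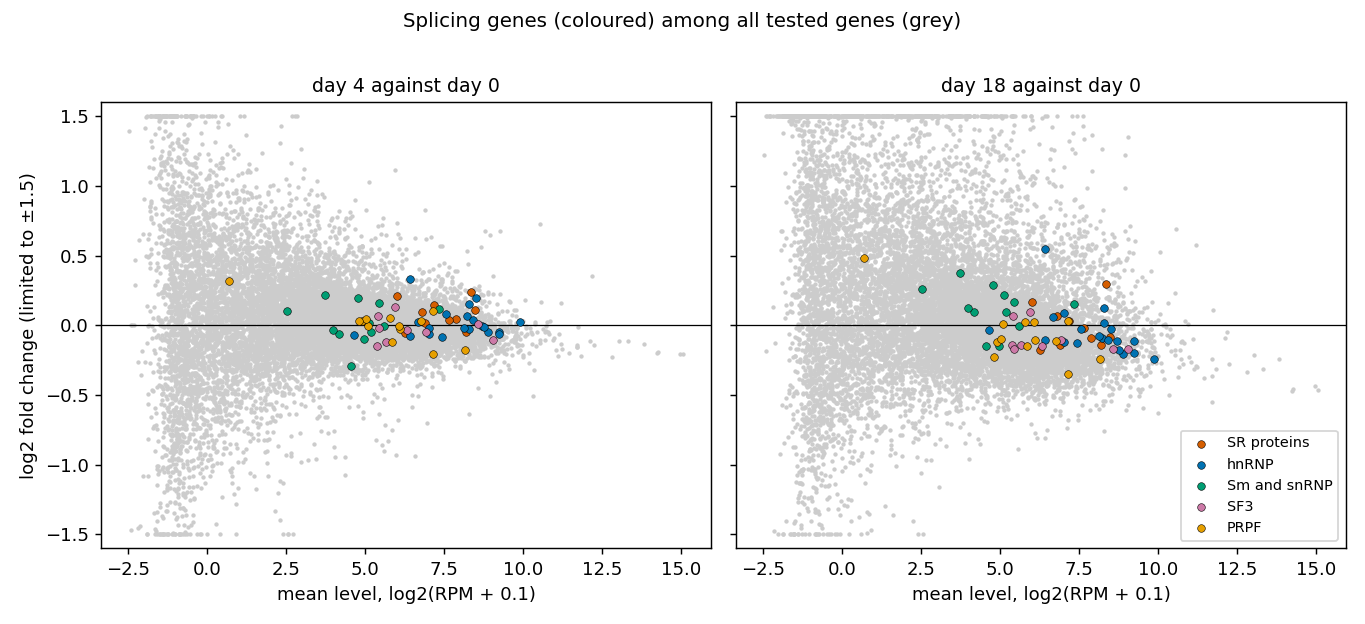
Log2 fold change against day 0 (y axis, limited to ±1.5) over mean level, log2(RPM + 0.1) (x axis), for the splicing genes (coloured by family) and all other tested genes (grey), at day 4 (left) and day 18 (right). The splicing genes lie at a median log2 level of 6.72 and most sit close to 0, with Hnrnpa1 the highest of the abundant members at 0.33 and 0.55.

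The balance of rises and falls depended on how the libraries were scaled to each other. With library totals in place of the trimmed mean of M values, 16 of the 64 genes rose and 8 fell at day 18. These are 25% and 12.5%, beside 24% higher and 9.95% lower of all tested genes. The share of higher genes among all called was 70.7% rather than 51.3%. At day 4 the counts were 13 and 2, or 20.3% and 3.12%, beside 8.82% and 3.22% of all tested genes. Higher genes made up 73.2% of all called there, rather than 45.1%. Scaling without the 20 most abundant genes gave 10 rises and 9 falls at day 18, with 65.6% higher among all called. Those counts are 15.6% and 14.1%, beside 22% and 11.6% of all tested genes. The median change of all tested genes at day 18 was 0.0986 with library totals. Relative to that, the median of the splicing genes was again lower, at -0.00223. The SR family median at day 18 was -0.0534 in the analysis above and 0.0308 with library totals, and the hnRNP median at day 4 was -0.0142 and 0.0392, so neither family has a direction independent of scaling there. No call changed sign under any alternative that tested its gene, and Hnrnpa1, Srsf5, Hnrnpa2b1 and Prpf8 were among those that kept their day 18 calls under each of these. At day 4 the calls of Hnrnpa1, Hnrnph1, Srsf5 and Prpf8 were lost with 1 spread for all levels and on the RPKM scale and in no other alternative that tested them. Hnrnpa1, Srsf5 and Prpf8 were not tested in the alternative with genes of whole reads only, since their values resolve into fractions.

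Calls also depended on single libraries. At day 4 those of Hnrnpa1, Srsf5, Hnrnph1 and Prpf8 held when each library was left out in turn. The call of Hnrnpa0 was lost without day 4 B (0.085, adjusted p = 0.185) or either day 0 library, and that of Srsf11 without day 4 A (0.094, adjusted p = 0.224) or either day 0 library. Srsf9 was not called without day 0 B (0.16, adjusted p = 0.292) or day 4 B, Srsf2 without day 4 A (0.094, adjusted p = 0.0686) or either day 0 library, and Sf3b1 without day 4 B (-0.081, adjusted p = 0.076) or either day 0 library. At day 18, 12 of the 27 calls held throughout, among them Hnrnpa1, Srsf5, Hnrnpa2b1, Hnrnpf, Hnrnpu, Hnrnpul1, Hnrnpul2, Prpf8, Sf3b1, Sf3b2 and Srsf1. Among the rises, Snrpb was not called without day 0 A (0.12, adjusted p = 0.0785), Snrpd2 without day 0 A (0.24, adjusted p = 0.13) or day 18 A, Hnrnpa0 without day 18 B (0.084, adjusted p = 0.215) or either day 0 library, and Srsf9 without day 18 B (0.079, adjusted p = 0.5) or day 0 B. Among the falls, Srsf4 was not called without day 0 B (-0.10, adjusted p = 0.192) or day 18 B, Srsf10 without day 18 B (-0.15, adjusted p = 0.125) or day 0 B, and Hnrnpd without day 18 B (-0.071, adjusted p = 0.217) or either day 0 library. The calls of Srsf2 (-0.074, adjusted p = 0.142 without day 18 A) and Srsf3 were lost without any 1 of the 4 libraries, that of Hnrnpl without day 18 B, and those of Hnrnpab, Hnrnpc and Sf3a1 without at least 1 library of each day.

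**Figure D4:**
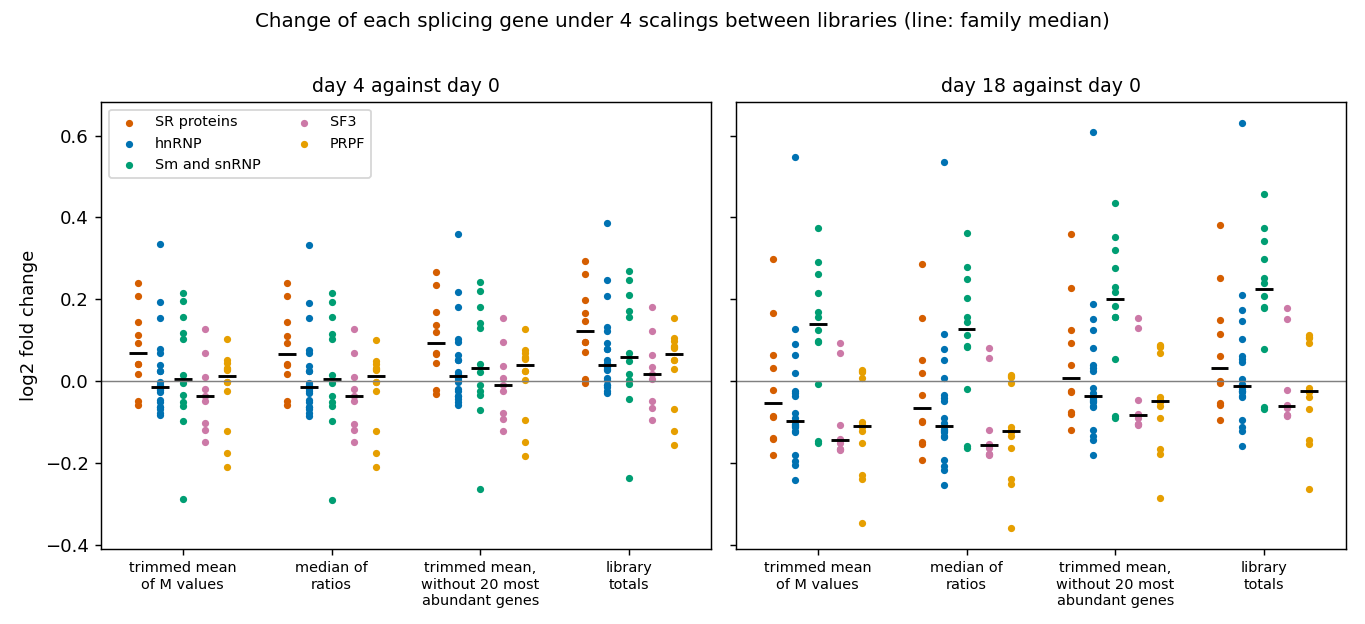
Log2 fold change against day 0 (y axis) of each splicing gene (points, coloured by family; Prpf40b left out) at day 4 (left) and day 18 (right) under 4 scalings between libraries (x axis); black lines are family medians of the genes shown. At day 18 the Sm and snRNP line stays above 0 and the SF3 line below 0 in all 4, while the SR line lies on both sides.

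Other genes of the splicing machinery, 139 tested of 142 in 7 lists, showed 6 rises and 14 falls at day 4 and 8 rises and 39 falls at day 18, or 14.4% and 33.8% called, beside 12.1% and 35.2% of all tested genes. By direction, 4.32% were higher and 10.1% lower at day 4, beside 5.44% and 6.61% of all tested genes. At day 18, 5.76% were higher and 28.1% lower, beside 18% and 17.1%. With library totals as scaling the day 18 counts were 20 rises and 18 falls. These are 14.4% and 12.9%, beside 24% higher and 9.95% lower of all tested genes. Snrnp70, the protein that marks the U1 snRNP, had 218 and 222 RPM at day 0, 268 and 268 RPM at day 4 and 264 and 263 RPM at day 18 (0.28 ± 0.032 at day 4, adjusted p = 5.09e-07, and 0.26 ± 0.032 at day 18, adjusted p = 2.93e-07). Snrnp200, the helicase that works beside Prpf8, had 218 and 211 RPM at day 0, 193 and 187 RPM at day 4 and 178 and 169 RPM at day 18 (-0.30 ± 0.038 at day 18, adjusted p = 3.74e-07). Snrnp70 was thus higher and Snrnp200 lower at both later days. Of 29 tri-snRNP and catalytic genes 5 fell at day 18, or 17.2%, close to the 17.1% of all tested genes that were lower. Among them were Usp39 (-0.32 ± 0.053, adjusted p = 2.77e-05) and Cdc5l (-0.23 ± 0.055, adjusted p = 0.00151). Of 23 Sm-like and snRNP assembly genes 2 rose, or 8.7%, beside 18% of all tested genes. These were Clns1a and Lsm7, the second at 1.49 to 3.21 RPM.

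The list of other splicing regulators had 3 rises and 23 falls among its 42 tested genes at day 18, that is 7.14% higher and 54.8% lower, beside 18% higher and 17.1% lower of all tested genes. With library totals as scaling it had 6 rises and 9 falls, or 21.4% lower, beside 9.95% of all tested genes. Without the 20 most abundant genes it had 5 rises and 10 falls, or 23.8% lower, beside 11.6% of all tested genes. Mbnl3, a muscleblind family regulator, had 79.4 and 83.6 RPM at day 0, 64.3 and 61.2 RPM at day 4 and 51.2 and 48.5 RPM at day 18 (-0.71 ± 0.060 at day 18, adjusted p = 3.41e-10). Ptbp3, a polypyrimidine tract binding protein of blood cells, had 646 and 652 RPM at day 0, 575 and 558 RPM at day 4 and 530.2 and 554 RPM at day 18 (-0.26 ± 0.026 at day 18, adjusted p = 5.93e-09). Rbm3, a cold-induced RNA binding protein, was higher at day 18, with 272 and 272 RPM at day 0, 283 and 291 RPM at day 4 and 334 and 356 RPM at day 18 (0.34 ± 0.033, adjusted p = 3.99e-09). These 3 genes stood apart between day 18 and day 0 without overlap.

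The list of SR protein kinases and transport had 2 rises and 1 fall among its 8 tested genes at day 18. These make 37.5% called, close to the 35.2% of all tested genes. Clk1 had 162 and 162 RPM at day 0, 159.5 and 155 RPM at day 4 and 202 and 202 RPM at day 18 (0.32 ± 0.037 at day 18, adjusted p = 1.02e-07). Srpk2, the cytoplasmic kinase, had 159.6 and 166 RPM at day 0, 141 and 142 RPM at day 4 and 131 and 128 RPM at day 18 (-0.33 ± 0.041 at day 18, adjusted p = 2.27e-07). Clk1 was thus higher and Srpk2 lower at day 18, and Clk3 was also called higher (0.16 ± 0.050, adjusted p = 0.0121). Of the 14 exon junction and decay genes, 7 fell at day 18, or 50%, beside 17.1% of all tested genes. With library totals as scaling 3 fell, or 21.4%, beside 9.95%. The falls were led by Upf2, a core factor of nonsense-mediated decay. It had 79.8 and 85.8 RPM at day 0, 67.6 and 68.3 RPM at day 4 and 63.8 and 63.7 RPM at day 18 (-0.38 ± 0.056, adjusted p = 5.52e-06). Smg1, a kinase of the same pathway, fell as well (-0.23 ± 0.038, adjusted p = 3.21e-05). Of 9 minor spliceosome genes, Zrsr1 alone fell at day 18 (-0.33 ± 0.091, adjusted p = 0.00519), or 11.1%, beside 17.1% of all tested genes.

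Marker lists of cell types moved over the same days as the splicing genes. The sum of the 8 late neutrophil granule markers was 135200 to 135900 RPM at day 0, 116000 to 120400 RPM at day 4 and 99640 to 101300 RPM at day 18. The most abundant genes set such sums, and not all members of a list moved alike. At day 18 against day 0, 6 of these 8 were called lower and 1, Retnlg, higher (601 and 574 RPM at day 0, 692 and 689 RPM at day 18). Against day 4, 3 were called higher and 3 lower. The 10 proliferation markers summed to 3181 to 3209 RPM at day 0, 2920 to 2960 RPM at day 4 and 2339 to 2346 RPM at day 18. Of these, 2 were called higher and 2 lower at day 4, and 9 fell at day 18. The 8 macrophage markers, all higher at day 18, summed to 468 to 476, 500.4 to 511 and 842 to 879 RPM on the 3 days. At day 4, 3 of them were called higher and 3 lower. The 5 monocyte markers summed to 1059 to 1096, 1221 to 1234 and 1539 to 1540 RPM. At both later days 4 of the 5 were called higher and 1, Ly6c2, lower. The 4 early neutrophil granule markers summed to 2125 to 2149, 3483 to 3523 and 2513 to 2575 RPM, highest at day 4. The 5 erythroid markers summed to 176 to 194, 101 to 102 and 270.1 to 276 RPM and the 4 eosinophil markers to 239 to 244, 229 to 245 and 416 to 423 RPM. Of 5 T and NK cell markers, 3 were not listed. The part of these shifts in the changes of the splicing genes was not tested.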

How the data were processed

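The submitters' processing notes name the aligner STAR 2.5.3a and the mouse build mm10 for the 6 RNA libraries. How reads were counted, and over which annotation, is not given in the sources used here. Values were deposited as RPKM per gene and library by the authors. Times the gene span in kilobases, introns included, these values sum to 1000000 per library, which gave RPM, and the steps between low values gave the assigned reads. Within 0.05 reads plus 1e-05 per read, 75.3% to 76.9% of values in a library were whole, too few to run a count model. Deposited column letters A and B are not in the labels and name libraries only.

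Members, gene lists and alternatives were chosen with earlier results of these data known. Scaling factors (trimmed mean of M values, with trims of 0.3 on M and 0.05 on A) were 0.97, 0.968, 1.01, 1, 1.03 and 1.02 from day 0 A to day 18 B. Genes with at least 0.453 RPM (10 reads) in 2 libraries and 15 reads in all were tested: 14304. Log2(RPM + 0.1) was fitted with limma 3.58.1 in R 4.3.3 in 1 model of the 6 libraries, with robust moderation and a spread that follows the level (3 residual and 22 prior degrees of freedom). The pseudocount understates changes of low genes. The method was tested on simulated data. Exon lengths and transcript types came from GENCODE M21, in which 17089 symbols were found, and promoters from RefSeq (GRCm38.p6). Python 3.11.15, pandas 2.3.3, numpy 2.4.6 and matplotlib 3.10.9 were used.

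Named with values in every library were, in each comparison, the 8 called members with the largest rise and the 8 with the largest fall with a mean of at least 8 RPM, the member of each family with the highest RPM, and of each other splicing list genes from the 3 with the smallest p. Prpf40b, Srsf1, Snrpf, Snrpg and the other members named with a change alone were chosen after their values were seen. Some genes that the rule names are counted here but not reported by name.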

Additional observations from a re-analysis of the deposited data

Results flagged for a closer look

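For 12 of the named genes the change at day 18 differed from the change at day 4 by the limma contrast of day 18 with day 4, from which the day 0 level cancels out. They are among the 20 calls of that comparison given above. Some genes were named because they were called in it, so the number 12 is no separate result. The difference in log2 fold change was 0.21 for Hnrnpa1, which was higher again at day 18 (0.55 at day 18 and 0.33 at day 4, against day 0). It was -0.27 for Hnrnpa2b1, -0.26 for Prpf4, -0.22 for Hnrnph1, -0.20 for Srsf2 and -0.18 for Sf3b2. For Hnrnpul2 it was -0.17, for Hnrnpd -0.16, for Hnrnpul1 -0.16, for Srsf4 -0.16, for Hnrnpu -0.13 and for Srsf11 -0.11. The Srsf11 difference was lost with library totals as scaling (adjusted p = 0.183), without the 20 most abundant genes and when any 1 library other than day 4 B was left out, and was -0.062 without day 4 A. The Srsf4 difference was lost without day 18 B (adjusted p = 0.0945) and when scaling left out the 20 most abundant genes (adjusted p = 0.0512). The differences of Hnrnpa1 and Prpf4 were also lost without single libraries, as given above. Hnrnph1, Srsf2 and Srsf11 were called higher at day 4, and Srsf2 was also called lower at day 18. No group had enough libraries to look for single libraries that stand apart.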

How the results depend on the processing

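Of 1200 recalculations of single named genes, 0 reversed the direction of a called change. Only called changes were judged for this, and changes not called could switch sign. Hnrnpul2 at day 4 stood at -0.0097 in the analysis above and at 0.0438 with library totals. Members called changed most with scaling and with the model of the spread. At day 4, rises and falls numbered 13 and 2 with library totals, 0 and 0 with 1 spread for all levels, 0 and 0 on the RPKM scale, and falls numbered 2 without the 20 most abundant genes and 2 with genes of whole reads only. All genes called at day 4 numbered 0 with 1 spread (2458 at an unadjusted p under 0.05) and 91 on the RPKM scale. At day 18 against day 0, rises and falls numbered 16 and 8 with library totals, 2 and 3 with 1 spread (2619 genes in all), 3 and 10 on the RPKM scale and 3 and 5 with whole reads only, and falls numbered 9 without the 20 most abundant genes. At day 18 against day 4 they numbered 4 and 11 with library totals, 4 and 10 without the 20 most abundant genes, 0 and 1 with 1 spread (1358 genes in all), 0 and 7 on the RPKM scale (2093 genes in all) and 0 and 7 with whole reads only. The cause was not tested, but whole reads only leaves 29 members. At day 18 against day 4, 15.7% of all tested genes were higher and 9.35% lower with library totals. Without the 20 most abundant genes these shares were 15.8% and 8.93%.

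Leaving out 1 library gave 3 to 7 rises and 2 to 4 falls at day 4 (912 to 1567 genes in all), 4 to 8 rises and 12 to 24 falls at day 18 against day 0 (3644 to 5345 genes), and 0 to 1 rise and 11 to 15 falls at day 18 against day 4 (2546 to 3568 genes). A day left with 1 library was assumed to vary like the others. With the column letter as a replicate block, 7 members rose and 4 fell at day 4, 7 rose and 20 fell at day 18, and against day 4 1 rose and 16 fell. The labels do not say whether the letters pair the libraries. Deviations of the A libraries from their day means correlated at -0.117, 0.0475 and 0.0264 between days over 5488 genes. These values show no strong shared pattern, and a weaker pairing was not tested. Depth limits Prpf40b, Snrpg and Snrpf most.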
